A study of Rattus norvegicus with 9 samples.

Results

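The genes examined here are 9 adipocyte and lipid storage genes, *Lpl*, *Cfd*, *Scd*, *Fasn*, *Lipe*, *Lep*, *Plin1*, *Pparg* and *Adipoq*, taken as a measure of fat in or around a laryngeal muscle of the rat. Members were all probe sets whose single gene symbol in the platform annotation was one of these names, and 8 of the 9 genes were found, on 15 of 8740 probe sets; no probe set carried *Adipoq* as its single symbol. One more probe set listed *Scd* together with other symbols, 4 in all, and was left out by the same rule. The muscle was the posterior cricoarytenoid, which opens the vocal folds, at 6, 18 and 30 months of age. For each age 3 chips of the Affymetrix Rat Genome U34 type were used, and each held RNA pooled from 4 animals. The labels name no treatment, genotype, strain or sex, and the 6-month muscle is the baseline of the study. Values are signals from Microarray Suite 5.0 (MAS 5.0), a linear measure of brightness per probe set. A label field names the dyes Cy3 and Cy5, while the design text describes biotin-labelled RNA on single-channel chips, and the signals were read here as 1 channel. Error terms describe how pools differed, with single animals unresolved, and 3 arrays per age limit the precision. In whole tissue, fewer cells of a type and less RNA per cell cannot be told apart.

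Fat cells store fatty acids as triglyceride in lipid droplets and release them again when other tissues need fuel. Lipoprotein lipase takes fatty acids from circulating lipoproteins, fatty acid synthase and stearoyl-CoA desaturase make new ones, perilipin 1 coats the droplet, and hormone-sensitive lipase breaks its lipid down. The receptor PPARγ drives fat cell differentiation, and fat cells secrete leptin, adiponectin and the serine protease adipsin. Skeletal muscle fibres also express lipoprotein lipase and hormone-sensitive lipase, which supply them with fatty acids, so these are not markers of fat cells alone.

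Of the 15 member probe sets 11, in 6 genes, lay in the upper 60% of probe sets by mean log2(signal + 32) and were tested among 5244 probe sets. The other 4, those of *Plin1* and *Pparg*, 1 of *Lep* and 1 of *Scd*, lay under that filter. *Plin1* and *Pparg*, both defining genes of fat cells, read only 24.0 to 60.6 and 12.3 to 85.8 over the 9 arrays, and with no detection calls in the values used here they cannot be called present or absent. *Fabp4*, the fatty acid binding protein of fat cells and of capillary endothelium, was the other adipocyte marker on the array and read 1016 to 1557. The muscle label held, as muscle creatine kinase (*Ckm*) read 33085 to 48488.

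The 2% trimmed mean signals were nearly equal, 500.868 to 500.968, as scaling to a common value sets them, so they do not compare the arrays. Median signals, which such scaling leaves free, were 120.1 to 124.8 at 6 months, 104.2 to 115.9 at 18 months and 105.0 to 112.3 at 30 months. Every older array thus had a lower median than every 6-month array. Replicate 1 of 6 months stood apart from the rest: 102 of 5244 tested probe sets differed over 2-fold from the median of the other 8 arrays there, against 39 to 84 on each other array. Of these 102, 39 were higher (0.744% of those tested) and 63 lower (1.2%). Changes that move with that pool are given with and without it.

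The lipogenic genes *Scd* and *Fasn* and the adipsin gene *Cfd* were highest in that 1 young pool. *Scd*, the desaturase that makes monounsaturated fatty acids for storage, had signals of 2347, 968 and 936 in the 6-month pools, 820.3, 930.5 and 742 in the 18-month pools and 1005, 812 and 644 in the 30-month pools (probe set J02585_at). The first pool of 6 months read 2.68 times the median of the other 8 arrays and 2.34 times the highest of them. *Fasn*, which builds palmitate from acetyl and malonyl units, read 778, 407 and 286 in the 6-month pools, 234, 220.0 and 266 in the 18-month pools and 211, 251 and 234 in the 30-month pools (X13527cds_s_at). Here the first pool stood at 3.21 times the median of the other 8, and the second pool of 6 months was also above every older pool. The other *Fasn* probe set, M76767_s_at, read 843, 297 and 223 in the 6-month pools, 229, 227 and 217 in the 18-month pools and 238, 203 and 193 in the 30-month pools. There the first pool reached 3.74 times the median of the other 8, while the third pool of 6 months lay among the older ones. *Cfd*, which encodes adipsin, also called complement factor D, read 600.3, 327 and 260.3 in the 6-month pools, 298, 203 and 297 in the 18-month pools and 432, 359 and 299.9 in the 30-month pools (M92059_s_at). Its first pool was 2.01 times the median of the other 8 arrays, and the next highest reading was in a 30-month pool.

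**Figure D1:**
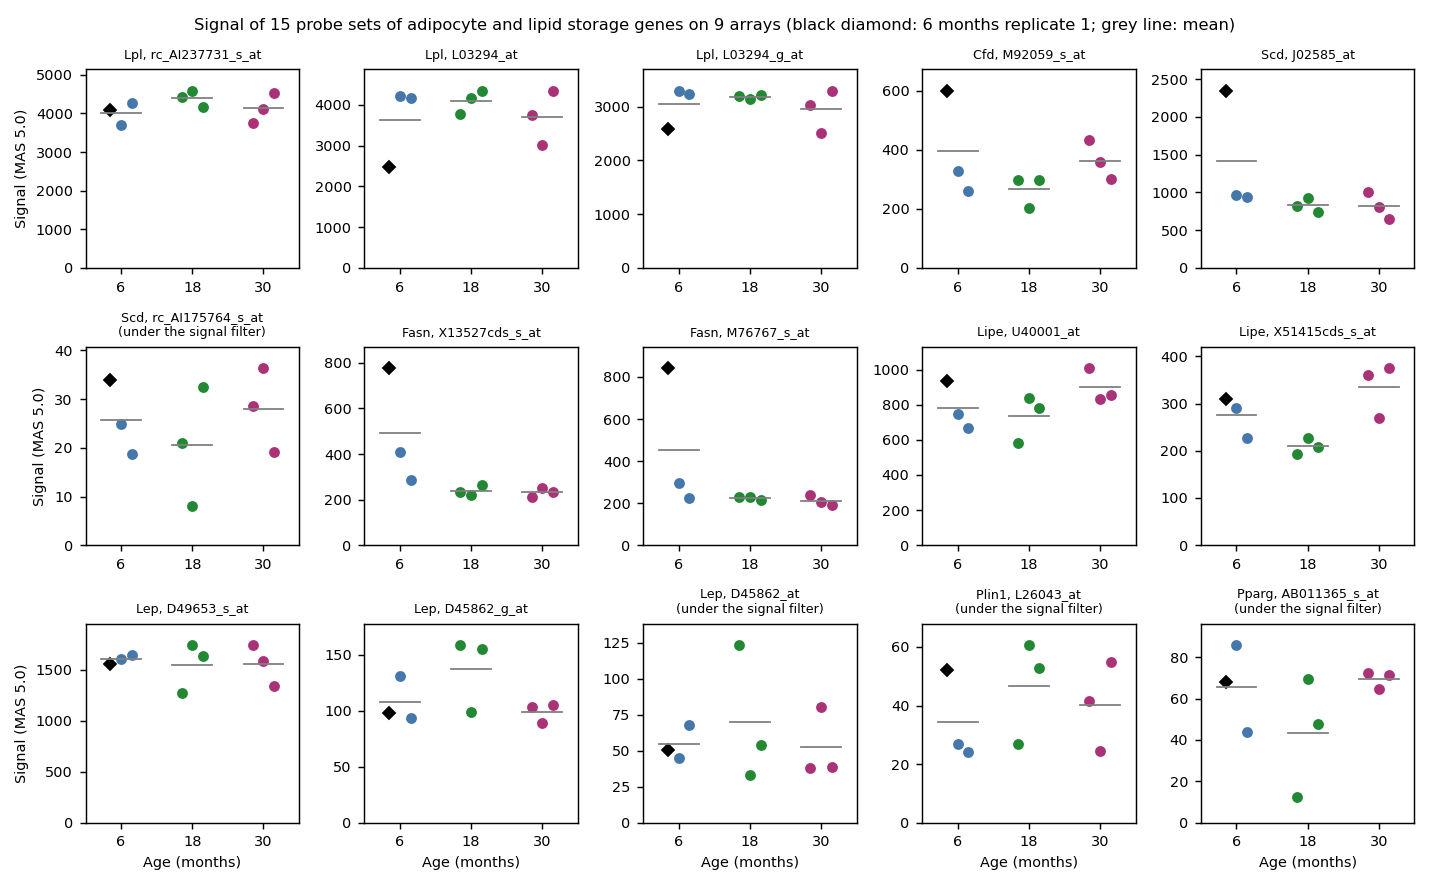
Signal (MAS 5.0, linear axis from 0) of the 15 member probe sets against age in months, with 3 arrays per age as points, their mean as a grey line, and replicate 1 of 6 months as a black diamond. That pool is the highest of 9 for Scd J02585_at, both Fasn probe sets and Cfd, and the lowest for Lpl L03294_at.

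Not every member was high in the first pool of 6 months. It held the highest of the 9 readings in 4 of the 11 tested member probe sets (36.4%), those of *Scd*, *Fasn* and *Cfd*, and over all tested probe sets the highest reading was there in 20.1%. On the log2(signal + 32) scale 3 of the 11 members, those of *Scd* and *Fasn*, lay over 2-fold above the median of the other arrays; on the linear signals *Cfd*, at 2.01 times, did too. *Lpl*, the enzyme that frees fatty acids from lipoproteins at the capillary wall, went the other way in 1 of its 3 probe sets: L03294_at read 2477, 4216 and 4179 in the 6-month pools, 3767, 4161 and 4353 in the 18-month pools and 3765, 3014 and 4345 in the 30-month pools. The first pool was the lowest of the 9, at 0.594 times the median of the others. A second probe set, L03294_g_at, read 2589 there and 2515 to 3296 on the other arrays. The third *Lpl* probe set, rc_AI237731_s_at, read 4099 in that pool, inside the 3702 to 4590.0 of the other 8.

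*Lep* did not follow *Scd* and *Fasn* either, and the low readings of *Plin1* and *Pparg*, under the signal filter, cannot settle whether these genes did. *Lep*, the leptin gene, read 1559 in the first pool of 6 months against 1267 to 1740.1 on the other arrays (D49653_s_at), and its probe set D45862_g_at read 97.7 there against 88.6 to 158. *Plin1*, the droplet coat gene, read 52.0, 26.9 and 24.0 in the 6-month pools, 27.0, 60.6 and 52.9 in the 18-month pools and 41.5, 24.5 and 54.7 in the 30-month pools. *Pparg*, the adipogenic receptor gene, read 67.8, 85.8 and 43.6 in the 6-month pools, 12.3, 69.5 and 47.8 in the 18-month pools and 72.6, 64.8 and 71.4 in the 30-month pools. In both genes the ages overlapped and the first pool was not the highest of the 9. *Fabp4* read 1382 in that pool, below the highest of the other arrays, 1557.

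The letters just upstream of *Scd* and *Cfd*, members from 2 branches of fat cell biology that were high in the same pool, are shown for comparison of their promoters, from RefSeq on the assembly GRCr8. Each run is the 250 bases before the annotated start of the gene, read 5′ to 3′ on its own strand. *Scd* lies at chr1:253231732-253231981 and *Cfd* at chr7:10465497-10465746, both on the minus strand. Capitals mark the run ATAAAA, which resembles the core of a classical promoter box, as well as the GC box (GGGCGG), on either strand.
Scd: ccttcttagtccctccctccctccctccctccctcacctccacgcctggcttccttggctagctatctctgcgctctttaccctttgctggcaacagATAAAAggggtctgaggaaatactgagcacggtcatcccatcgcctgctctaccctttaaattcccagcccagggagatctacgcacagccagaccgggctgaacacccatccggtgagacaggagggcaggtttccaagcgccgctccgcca
Cfd: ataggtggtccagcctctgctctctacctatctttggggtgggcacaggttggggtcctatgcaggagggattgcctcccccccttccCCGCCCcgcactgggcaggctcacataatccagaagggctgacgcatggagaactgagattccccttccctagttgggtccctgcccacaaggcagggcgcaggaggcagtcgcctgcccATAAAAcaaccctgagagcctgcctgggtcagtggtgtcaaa
The run ATAAAA starts 153 bases before the gene in *Scd* and 42 bases before it in *Cfd*, and 18.6% of the 33469 promoter windows of this length hold it; it was picked after these windows had been read. The GC box, present in *Cfd* on the opposite strand, is held by 30.5% of the windows. Neither window holds an E-box (CANNTG, 65.5% of windows), the box CCAAT (34%), TATAAA (12.9%, which overlaps ATAAAA where a further A follows), the half-site AGGTCA (14.1%) or the sterol element core TCACNCCAC (0.974%), all searched on both strands. Windows for 6 of the 9 genes were in the table, and *Lpl*, *Fasn* and *Lipe* were not matched.

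The comparison of 18 with 6 months set the members in mid-life against the baseline of the study. By limma 0 of the 11 member probe sets passed an adjusted p of 0.05, where 4 of 5244 probe sets (0.0763%) did, and 1 member, *Fasn*, had an unadjusted p under 0.05 on the lower side (5.63% of all) and 0 on the higher side (2.99% of all). Of the log2 changes 7 lay below 0 and 4 above, with a median of -0.09, beside a median of -0.04 over all tested probe sets. *Fasn* averaged 239.9 ± 23.8 at 18 months and 490.4 ± 256 at 6 months (SD, n = 3 arrays each; X13527cds_s_at), a log2 change of -0.83 (SE 0.28, limma adjusted p = 0.477). Without replicate 1 of 6 months that change was -0.46 (SE 0.16, limma adjusted p = 0.758), and all 18-month readings still lay below both remaining readings of 6 months. The other *Fasn* probe set moved more with that pool: its change was -0.71 (SE 0.36) with it and -0.18 (SE 0.15) without it. *Scd* averaged 831 ± 94.7 at 18 months and 1417 ± 806 at 6 months (SD, n = 3), a change of -0.62 (SE 0.32, limma adjusted p = 0.614), which was -0.19 (SE 0.19) without replicate 1 of 6 months. *Cfd* had a change of -0.46 (SE 0.27), and of -0.14 (SE 0.21) without that pool.

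Readings of the 2 ages did not overlap in 3 member probe sets, all lower at 18 months, those of *Scd*, *Fasn* (X13527cds_s_at) and *Lipe* (X51415cds_s_at), beside 8.35% of all tested probe sets, and 0 were wholly higher, beside 5.32%. For *Scd* the gap was narrow, 930.5 as the highest reading at 18 months against 936 as the lowest at 6 months. A rule of over 1.7-fold between mean signals with no overlap held for 2 members, *Scd* and *Fasn* (X13527cds_s_at), beside 0.877% of all on that side, and for 0 on the higher side, beside 0.553%. Without replicate 1 of 6 months 0 members met it, with ratios of mean signal at 18 over 6 months of 0.873 for *Scd* and 0.692 for *Fasn*. The change of *Lpl* was 0.13 (SE 0.12), 0.21 (SE 0.21) and 0.07 (SE 0.14) in its 3 probe sets, and the last 2 turned to -0.04 each without replicate 1 of 6 months. *Lep* had changes of -0.06 (SE 0.15) and 0.27 (SE 0.17). In each of these *Lpl* and *Lep* probe sets the readings of the 2 ages overlapped.

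**Figure D2:**
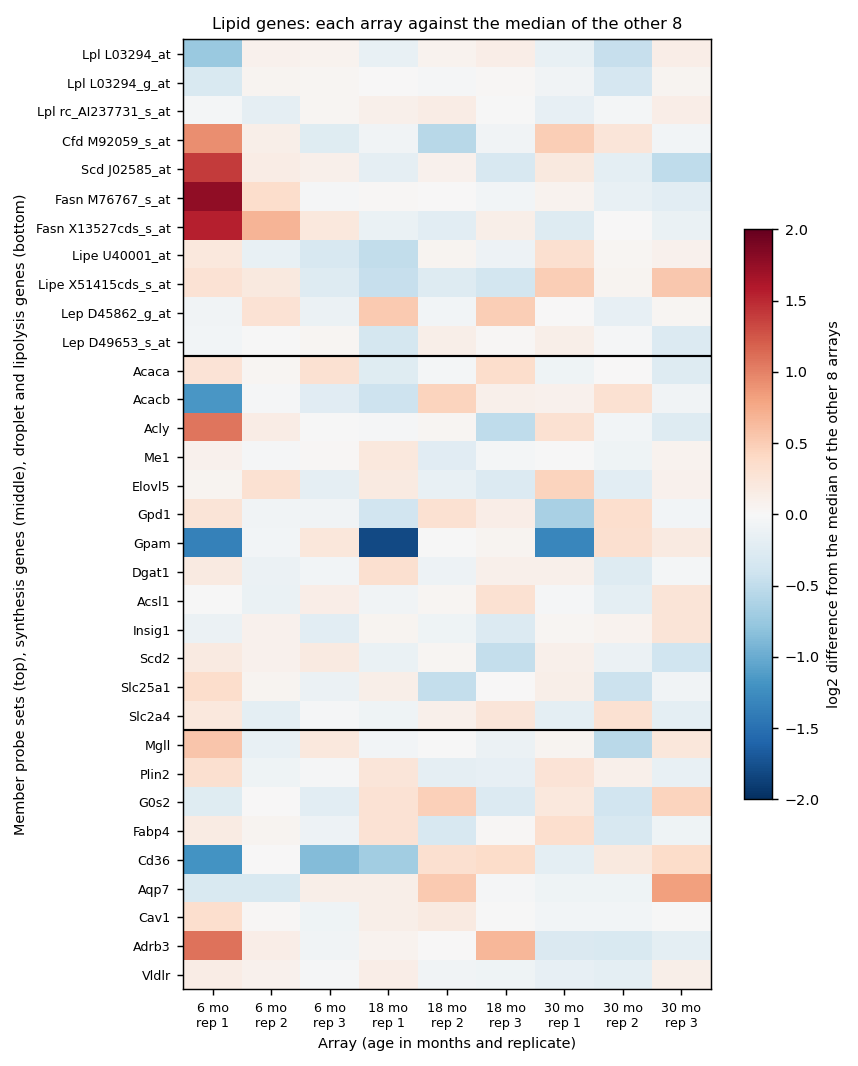
Each row is a probe set and each column an array, ordered by age in months and replicate, and the colour is the log2 difference of that array from the median of the other 8 (red higher, blue lower). The 11 tested member probe sets are at the top, 13 genes of fatty acid and triglyceride synthesis in the middle and 9 of droplet, lipolysis and fatty acid handling at the bottom. The first column is red for Cfd, Scd, Fasn, Acly and Adrb3. It is blue for Acacb, Gpam and Cd36, and paler blue for Lpl L03294_at (-0.74). Gpam, shown by its probe set U36773_at, is also blue on replicate 1 of 18 and of 30 months.

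The comparison of 30 with 6 months did the same for the oldest muscle. Again 0 of 11 member probe sets passed by limma, where 17 of 5244 (0.324%) did. One member, *Fasn* (X13527cds_s_at), had an unadjusted p under 0.05 on the lower side, beside 8.73% of all, and 0 had one on the higher side, beside 4.18%. It averaged 232 ± 20.3 at 30 months and 490.4 ± 256 at 6 months (SD, n = 3), a log2 change of -0.88 (SE 0.28, limma adjusted p = 0.299), or -0.50 (SE 0.16, limma adjusted p = 0.431) without replicate 1 of 6 months. This was the 1 member whose ages did not overlap, on the lower side, beside 14.8% of all, and the 1 member past the 1.7-fold rule, beside 1.51%; without replicate 1 of 6 months its ratio of mean signal at 30 over 6 months was 0.669 and 0 members met the rule. On the higher side 0 members were free of overlap, beside 7.4% of all, and 0 passed the 1.7-fold rule, beside 0.725%. The other *Fasn* probe set had a change of -0.79 (SE 0.36), and -0.26 (SE 0.15) without that pool. *Scd* averaged 820.3 ± 180.5 at 30 months (SD, n = 3), with a change of -0.65 (SE 0.32, limma adjusted p = 0.410) that was -0.23 (SE 0.19) without it, and its readings overlapped. *Cfd* averaged 363 ± 66.0 at 30 months and 396 ± 180.3 at 6 months, a change of -0.05 (SE 0.27) that turned to 0.28 (SE 0.21) without replicate 1 of 6 months. The median over the 11 members was -0.05 at 30 months, equal to that over all tested probe sets to 2 decimals (-0.05). Without replicate 1 of 6 months the medians were -0.13 over the members and -0.05 over all. The comparisons of 18 and of 30 with 6 months share the 6-month arrays.

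The lipase that mobilises stored fat, *Lipe*, was the member with the clearest separation between the 2 older ages, and it did not pass the threshold. It encodes hormone-sensitive lipase. Its probe set X51415cds_s_at read 310, 289.8 and 228.0 in the 6-month pools, 194, 227.7 and 208 in the 18-month pools and 361, 269.5 and 375 in the 30-month pools. All 30-month readings lay above all 18-month ones, and the lowest 6-month reading, 228.0, was barely above the highest at 18 months, 227.7. The log2 change at 30 against 18 months was 0.59 (SE 0.15, limma adjusted p = 0.999), and the change at 18 against 6 months was -0.34 (SE 0.15), or -0.26 without replicate 1 of 6 months. The other *Lipe* probe set, U40001_at, read 934, 747 and 665 in the 6-month pools, 585, 839 and 779 in the 18-month pools and 1009, 831 and 857 in the 30-month pools. There the 2 older ages overlapped by a single reading, 839 at 18 months, and the change was 0.29 (SE 0.17, limma adjusted p = 0.999).

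Over the comparison of 30 with 18 months 0 of 11 member probe sets passed by limma, where 1 of 5244 did (0.0191%), and 1 member, the *Lipe* probe set above, had an unadjusted p under 0.05 on the higher side (1.47% of all), with 0 on the lower side (1.74%). Ages did not overlap in 2 members, both higher at 30 months, beside 3.18% of all tested probe sets on that side and 4.18% on the lower side, where there was no member, and these were *Lipe* (X51415cds_s_at) and *Cfd*. *Cfd* averaged 363 ± 66.0 at 30 months and 266 ± 54.4 at 18 months (SD, n = 3), a change of 0.41 (SE 0.27), and the gap between the nearest readings was 299.9 against 298. *Lep* had -0.35 (SE 0.17) in D45862_g_at and 0.01 (SE 0.15) in D49653_s_at, so the signs of its probe sets differed. *Scd* (-0.03) and *Fasn* (-0.04 and -0.08) differed little between the older ages relative to standard errors of 0.28 to 0.36. An F-test for any difference among the ages passed for 0 of 11 members, beside 0.267% of all, and 2 members, *Fasn* (X13527cds_s_at, limma F-test adjusted p = 0.474) and *Lipe* (X51415cds_s_at, limma F-test adjusted p = 0.470), had an unadjusted p under 0.05, as did 8.92% of all. With 3 arrays on each side the smallest two-sided p of an exact permutation test is 0.1, so none was run for single genes.

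**Figure D3:**
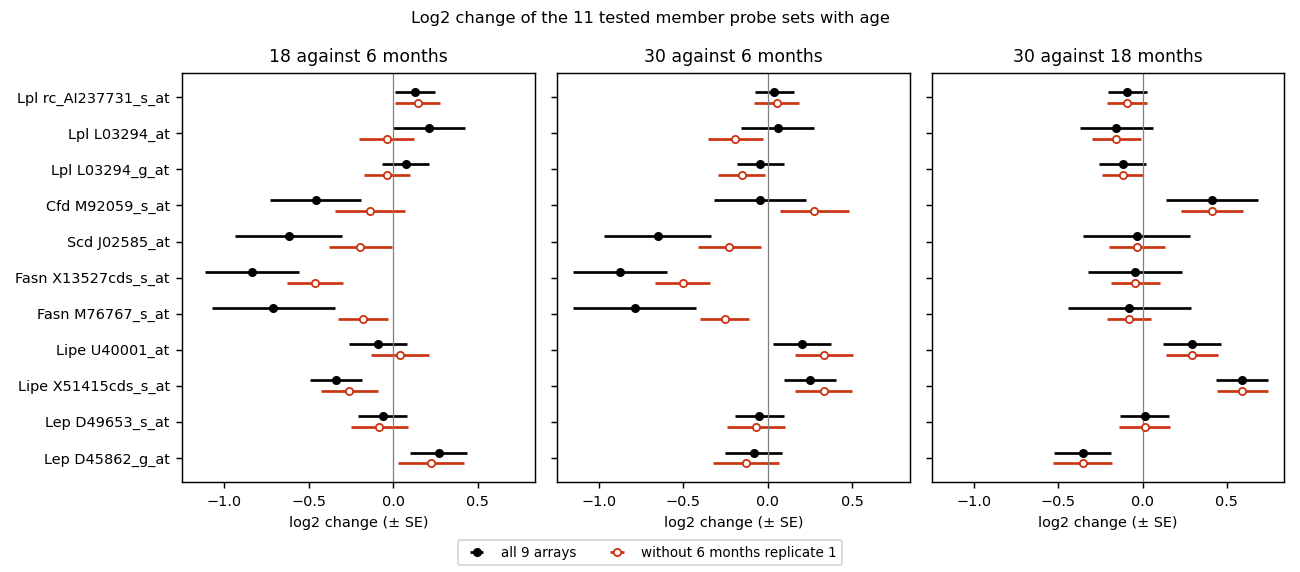
Log2 change on the log2(signal + 32) scale with its standard error for the 11 tested member probe sets in the 3 comparisons of ages, from all 9 arrays (black) and without replicate 1 of 6 months (open red). Leaving out that pool brings Scd and Fasn M76767_s_at close to 0 against 6 months, while Fasn X13527cds_s_at stays at -0.46 and -0.50.

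The member genes were also compared with each other over the 9 arrays, in 15 pairs of 6 genes. *Scd* and *Fasn* had a Pearson r of 0.861 (exact permutation p = 0.0358, adjusted over the pairs 0.328) and a Spearman rho of 0.25 (exact permutation p = 0.521, adjusted 0.670). Without the 2 arrays farthest from the median of *Scd*, replicate 1 of 6 months and replicate 3 of 30 months, r was 0.125, so the relation rested on those arrays. *Cfd* and *Scd* had r = 0.713 (exact permutation p = 0.0552, adjusted 0.328) and rho = 0.45 (p = 0.230 by exact permutation, adjusted 0.670), with r = 0.380 without the 2 arrays farthest from the median of *Cfd*, replicate 1 of 6 months and replicate 2 of 18 months. Without replicate 1 of 6 months alone r was 0.0795 for *Cfd* with *Scd* and 0.225 for *Scd* with *Fasn*, so both relations rested on that pool. After the age means were taken off, r was 0.769 for *Scd* with *Fasn* and 0.805 for *Cfd* with *Scd*, with that pool in. No pair passed after adjustment by either measure.

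The genes whose pattern was most like that of *Scd*, the gene with the widest range of log2 signal when each member is represented by its brightest probe set, were *Acly*, *Cdo1*, *Sik2*, *Rab8b* and *Fnta*, by Pearson r over the 9 arrays among 3157 genes. Their r ran from 0.950 for *Acly* to 0.904 for *Fnta*, and without replicate 1 of 6 months from 0.817 for *Acly* to 0.563 for *Fnta*. *Acly*, ATP citrate lyase, supplies cytosolic acetyl-CoA for fatty acid synthesis. It read 1513, 789 and 709 in the 6-month pools, 704, 723 and 495 in the 18-month pools and 884, 690 and 594 in the 30-month pools (J05210_g_at), again highest in the first pool of 6 months. The 2 weaker *Acly* probe sets had r of 0.203 and -0.273 with *Scd*. *Cdo1*, cysteine dioxygenase, an enzyme of taurine synthesis, read 856, 364 and 252 at 6 months and 211 to 286 on the older arrays, and its other probe set had an r of 0.917.

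Other genes of fat metabolism were taken from lists. In the counts for each list a gene is represented by its brightest probe set. Of 23 genes of fatty acid and triglyceride synthesis 13 were tested. By limma 0 passed in any comparison and 0 had an unadjusted p under 0.05. The median log2 change was -0.05 at 18 months and -0.03 at 30 months, both against 6 months. A weaker probe set of *Insig1*, L13619_g_at, was wholly lower at 18 than at 6 months. Its change was -0.43 (SE 0.14), or -0.30 without replicate 1 of 6 months, and it did not pass. The brightest *Insig1* probe set had -0.02 (SE 0.12) there. *Insig1* was named after its values were seen. The lists hold no member gene. In the first pool of 6 months 3 of the 13 were the highest of 9 and 1 was the lowest, beside 20.1% highest and 14.8% lowest over all tested probe sets. *Acacb*, which makes the malonyl-CoA that restrains fatty acid oxidation in muscle and which was named after its values were seen, read 153 there and 279.7 to 513 elsewhere. The rule for naming gave *Slc2a4*, the insulin-responsive glucose transporter gene (log2 change 0.08 at 18 and -0.02 at 30 months), and *Acsl1*, which activates long-chain fatty acids (0.09 and 0.02). Their weaker probe sets had changes below 0 at both ages. These were -0.07 and -0.16 for *Slc2a4*, and for *Acsl1* -0.18 to -0.28 at 18 months and -0.08 to -0.39 at 30 months. None of these changes passed the threshold.

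Of 26 genes of the lipid droplet, lipolysis and fatty acid handling 9 were tested, and 0 passed by limma in any comparison. By unadjusted limma p under 0.05, 1 was higher at 30 against 6 months, beside 4.18% of all tested probe sets. *G0s2*, which encodes an inhibitor of triglyceride lipase, had changes of 0.24 (SE 0.20) at 18 and 0.17 (SE 0.20) at 30 months against 6 months. *Cd36*, the fatty acid transporter gene, read 840.1, 1881 and 1056 in the 6-month pools, 1194, 2237 and 2314 in the 18-month pools and 1701, 2045 and 2320.1 in the 30-month pools. Its change at 30 months was 0.74 (SE 0.32, limma adjusted p = 0.371), or 0.50 without replicate 1 of 6 months, and its lowest reading was in the pool where *Scd* was highest. A second *Cd36* probe set, AB005743_at, had -0.07 (SE 0.27) at 30 months, and -0.46 without replicate 1 of 6 months, so the 2 differed in sign with that pool and without it. Of the 9 genes 5, *Mgll*, *Plin2*, *Cav1*, *Adrb3* and *Vldlr*, were highest in the first pool of 6 months, beside 20.1% of all tested probe sets. In 2, *Cd36* and *Aqp7*, the lowest reading was there, beside 14.8% of all. Those not named above were chosen after their values were seen.

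Among 21 adipogenic regulators 15 were tested and 0 passed by limma. By unadjusted limma p under 0.05, 1 was lower at 18 against 6 months, beside 5.63% of all tested probe sets. At 30 against 6 months 2 were higher, beside 4.18% of all, and 1 was lower, beside 8.73%. *Srebf1*, the transcription factor gene that activates lipogenic genes including *Fasn* and *Scd*, read 585, 573 and 581 in the 6-month pools, 462, 385 and 457 in the 18-month pools and 323, 306 and 505 in the 30-month pools. Both older ages lay wholly below 6 months, as in 8.35% of all tested probe sets at 18 and 14.8% at 30 months. Its changes were -0.39 (SE 0.17, limma adjusted p = 0.576) at 18 and -0.61 (SE 0.17, limma adjusted p = 0.260) at 30 months. Here the first pool of 6 months did not stand out. *Srebf1* was named after its values were seen. *Cebpb*, an early regulator of adipogenesis, had changes of 0.35 (SE 0.16) and 0.49 (SE 0.16, limma adjusted p = 0.306) in X60769mRNA_at. Its other probe set, S77528cds_s_at, had 0.13 and 0.27 (SE 0.25 each). *Rxrg*, a partner receptor, had -0.21 and -0.12 in AF016387_g_at and -0.15 and -0.08 in AF016387_at, but 0.18 and 0.32 in AJ223083_at. By the brightest probe set of each gene, the other regulator with an unadjusted p under 0.05 at 30 months was *Insr*. This insulin receptor gene had 0.76 (SE 0.32), or 0.32 without replicate 1 of 6 months. It read 47.3 in that pool against 143 to 222 elsewhere. A weaker probe set of *Ppard*, U40064_g_at, was wholly higher at 30 months than at 6 and at 18 months. Its changes were 0.74 and 0.93 (SE 0.25 each), and neither passed. Without replicate 1 of 6 months the first was 0.96. The brightest *Ppard* probe set had -0.07 and -0.08 (SE 0.15 each), and U40064_at had -0.08 and 0.02 (SE 0.20 each). *Insr* and *Ppard* were also named after their values were seen.

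Of 15 adipokine and receptor genes 5 were tested with 0 passing by limma. By unadjusted limma p under 0.05, 1, *Rbp4*, was lower at 18 against 6 months, beside 5.63% of all tested probe sets. *Apoe* had 0.22 (SE 0.13) and *Adipor2*, an adiponectin receptor gene, 0.03 (SE 0.12) at 30 against 6 months. *Rbp4*, which encodes the retinol carrier secreted by liver and fat and was named after its values were seen, read 351 in the first pool of 6 months and 87.1 to 166 elsewhere. Of the 5 brown fat genes 2 were tested and 0 passed by limma. By unadjusted limma p under 0.05, 1, *Cidea*, was lower at 18 and at 30 months, beside 5.63% and 8.73% of all. *Adrb3*, the β3-adrenergic receptor gene of fat cells, read 339, 161 and 141 in the 6-month pools, 153, 147 and 248 in the 18-month pools and 116, 115 and 126 in the 30-month pools, with a change of -0.61 (SE 0.28, limma adjusted p = 0.387) at 30 against 6 months, or -0.27 without replicate 1 of 6 months. *Cidea*, a droplet protein gene, read 437, 315 and 371 in the 6-month pools, 318, 271 and 232 in the 18-month pools and 306, 258 and 278 in the 30-month pools. Both *Adrb3* and *Cidea* lay wholly below 6 months at 30 months, as did 14.8% of all tested probe sets. Both were highest in the first pool of 6 months, beside 20.1% of all. The change of *Cidea* was -0.37 (SE 0.15, limma adjusted p = 0.355), or -0.26 without that pool. *Ucp1*, the defining uncoupling protein of brown fat, lay under the signal filter.

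Markers of other cells moved along the same ages. The summed signal of 6 fibroblast genes was 15958 to 20000.4 at 6 months, 11686 to 12573 at 18 months and 13031 to 13198 at 30 months. Its highest value was in the first pool of 6 months. There 3 of the 6 were the highest of 9 arrays, beside 20.1% of all tested probe sets. By limma 1 of the 6 fell at 18 months and 3 at 30 months against 6 months. Over all tested probe sets 0.0763% and 0.324% passed, in either direction. Without replicate 1 of 6 months the fibroblast counts were 0 and 1. The median change over the 6 was -0.74 at 18 and -0.85 at 30 months, or -0.73 and -0.84 without that pool. The 8 skeletal muscle genes summed to 140907 to 161604 at 6 months, 168958 to 202529 at 18 months and 171583 to 189835 at 30 months, with 0 passing. Their median log2 change was 0.24 at 18 and 0.29 at 30 months, but only 0.07 and 0.11 after quantile normalization, so much of it depended on the scaling. The fibroblast medians after quantile normalization were -0.74 and -0.85. The 9 adipocyte genes, members included, summed to 11818 in the first pool of 6 months and 9053 to 9826 on the other 8 arrays. Of the 7 tested adipocyte genes only 3, *Scd*, *Fasn* and *Cfd*, were highest in that pool. The adipocyte sum holds these readings and is no separate measure of fat cells. The 4 brown fat genes summed to 900.3 in that pool and 417 to 598 on the others. Endothelial (1702), smooth muscle (2746), Schwann cell (2913) and cartilage (152) sums were also highest in that pool, against highest values of 1556, 2713, 2764 and 137 on the other arrays. The macrophage sum (894) and the thyroid sum (279.7) were not. Of the 3 tested macrophage genes, however, 2, *Ptprc* (126) and *Cd14* (327), were highest in that pool, beside 20.1% of all tested probe sets. The brightest macrophage gene, *Lyz2*, read 420.4 there and 411 to 890 on the other arrays. These genes were named after their values were seen. All 4 cartilage genes lay under the signal filter, so their sum is one of weak signals. The part of these cell types in the readings of *Scd*, *Fasn* and *Cfd* was not tested.

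**Figure D4:**
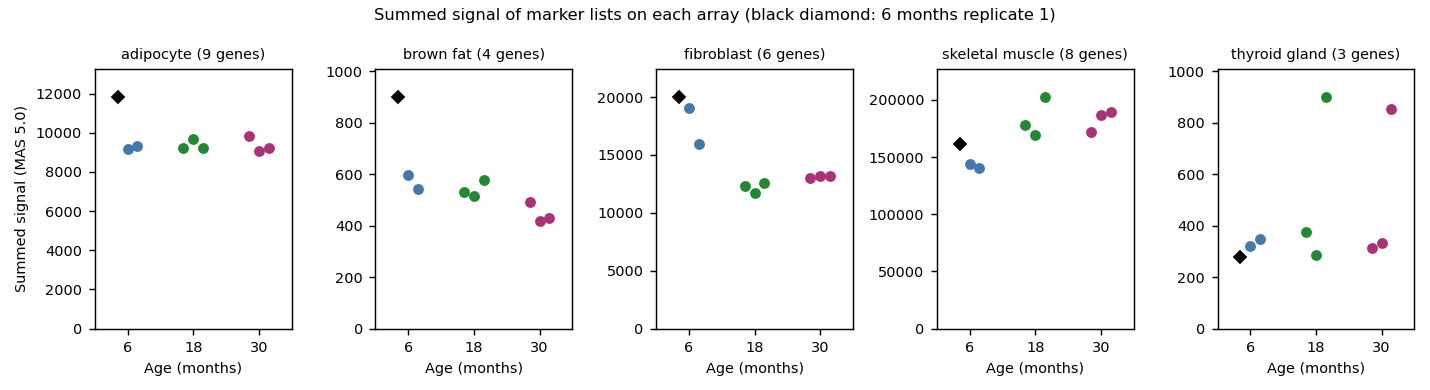
Summed signal (MAS 5.0, linear axis from 0) of the genes of 5 marker lists on each array against age in months, 1 probe set per gene, with replicate 1 of 6 months as a black diamond. The adipocyte sum is 11818 in that pool and at most 9826 elsewhere, and it includes the high Scd, Fasn and Cfd readings given above. The fibroblast sum is highest at 6 months and the skeletal muscle sum lowest there, both from signals without quantile normalization.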

How the data were processed

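Posterior cricoarytenoid muscle was measured on 9 arrays, grouped by the age in the titles. Signal intensity was computed by the authors with MAS5 on a linear scale, per the series' design text and the submitters' processing notes, which the labels carry; its release is not given in the sources used here, and the deposited values need no genome build. Per the design text the authors required uniform present or absent calls, uniform difference calls and a mean change above 1.7 before listing a gene. Their calls play no role below. After removal of 59 control rows from the 8799 deposited, 8740 intensity rows remained. Gene names came from the platform annotation, with 7006 probe sets of 1 symbol, 308 of several and 1426 of none, and a RefSeq table of GRCr8 changed 0 symbols.

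Values were analysed as log2(signal + 32), and the upper 60% by mean (5244 probe sets, mean log2 of at least 6.60) were tested. A model with 1 mean per age was fitted with limma 3.58.1 in R 4.3.3, two-sided, with Benjamini-Hochberg adjustment over 5244 probe sets at 0.05; values of probe sets under the filter are given without a test. Standard deviations and standard errors cover pools of 4 animals. The p-values judge differences between age means against the spread between pools, which limma moderates over all tested probe sets. The design text calls the replicates of an age independent. Scripts were tested on simulated data. A gene with several probe sets was represented in lists by the one with the highest mean. Genes named from a list were at most 4 that passed, by p, and where nothing passed the 2 brightest, with all members and the 5 genes most like the member of widest range; others are said to be named after their values were seen. The members and lists were chosen with earlier results of these data known. Alternatives were a pseudocount of 8, no filter, the upper 40%, quantile normalization, array weights, replicate number as a block, a 1.7-fold rule and leaving out each array.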

Additional observations from a re-analysis of the deposited data

How the results depend on the processing

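No member probe set passed an adjusted p of 0.05 in 492 values under the limma alternatives, where the lowest adjusted p was 0.192 (*Fasn* X13527cds_s_at at 30 against 6 months without replicate 3 of 6 months). The 1.7-fold rule without overlap gave 2 members at 18 and 1 at 30 months against 6 months, and 0 at both ages without replicate 1 of 6 months, an alternative chosen after seeing the data, as were the fibroblast counts and the median over all probe sets without that pool. Of the 492 values 464 kept their direction and 28 turned. With array weights the change of *Lpl* L03294_at at 30 against 6 months was -0.085, that of *Cfd* 0.11, that of *Lipe* U40001_at at 18 against 6 months 0.0080 and that of *Lep* D49653_s_at at 30 against 18 months -0.013; after quantile normalization *Lep* D45862_g_at had 0.051 at 30 against 6 months.

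Over the 9 fits that left out 1 array, changes that turned ran as follows. At 18 against 6 months *Lpl* L03294_at ran from -0.038 to 0.34 and L03294_g_at from -0.038 to 0.13, *Lipe* U40001_at from -0.19 to 0.060 and *Lep* D49653_s_at from -0.15 to 0.072. At 30 against 6 months the *Lpl* probe set rc_AI237731_s_at ran from -0.031 to 0.10, L03294_at from -0.19 to 0.20 and L03294_g_at from -0.16 to 0.064, *Cfd* from -0.28 to 0.28, *Lep* D49653_s_at from -0.13 to 0.052 and D45862_g_at from -0.16 to 0.033. At 30 against 18 months *Scd* ran from -0.19 to 0.12, *Fasn* X13527cds_s_at from -0.095 to 0.026 and *Lep* D49653_s_at from -0.12 to 0.12.

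Counts over all probe sets moved more. Leaving out 1 array gave 0 to 5 calls at 18 against 6 months, 0 to 20 at 30 against 6 months, 0 to 2 at 30 against 18 months and 0 to 11 by the F-test. The second 6-month array took all 4 of these counts to 0 when absent. Dropping the first 6-month array left 2, 3, 2 and 5 calls in the same order. The count at 30 against 6 months was also 0 when the second or the third 30-month array was dropped, 2 when the third 6-month array was and 10 when the first 30-month array was. The count at 18 against 6 months was 0 when the third 18-month array was dropped and 2 when the second was. The count at 30 against 18 months was 0 when the third 18-month or the second 30-month array was dropped. The F-test count was 0 when the second 30-month array was dropped and 3 to 5 when the third 6-month, the third 18-month, the first 30-month or the third 30-month array was. The count at 30 against 18 months was 4 without a filter and 0 with the upper 40%, array weights or the replicate block. Replicate numbers were not taken to pair the arrays in the main fit. Of 9 same-numbered pairs, 4 had deviations from the age means that correlated over 0.1 (-0.0209 to 0.261, median 0.0855). Of differently numbered pairs 2 of 18 did (median -0.042). All pairs of replicate 1 arrays did (0.131, 0.111 and 0.261). *Gpam* (U36773_at), picked after its values were seen, read 69.3, 41.9 and 71.8 in replicate 1 of 6, 18 and 30 months. On the other arrays it read 215 to 281. The tested *Gpam* probe sets did not all share this. U36773_g_at did, with 45.5, 33.6 and 47.1 in the replicate 1 arrays and 66.5 to 111.9 on the others. U36772_at did not, with 105.1, 175.7 and 124.8 against 117.1 to 178.8. Whether arrays of the same number share a source was not tested. As an alternative, the replicate block gave 11 at 30 against 6 months and 4 by the F-test, and changed no member call. With the block the unadjusted limma p of *Scd* fell to 0.037 at 18 and 0.030 at 30 against 6 months (adjusted 0.504 and 0.308). That of *Fasn* M76767_s_at fell to 0.034 at 30 against 6 months (adjusted 0.316). The F-test count was 6 with a pseudocount of 8, 6 without a filter and 9 after quantile normalization. The cause was not tested.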

Other observations

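Among the thyroid genes, kept as a check for tissue next to the larynx, 1 had a pattern that the member genes did not share. Thyroglobulin (*Tg*, X02318_at), the precursor protein of thyroid hormone, read 43.0, 109 and 108.5 in the 6-month pools, 38.4, 31.8 and 628 in the 18-month pools and 30.2, 83.3 and 555 in the 30-month pools. It was high in replicate 3 of both older ages. On those 2 arrays the adipocyte sum was 9240.1 and 9233, inside the range of the other arrays, and *Scd*, *Fasn* and *Cfd* were not at their highest. The other thyroid genes on the array did not share it: *Tshr*, the thyrotropin receptor gene, read 300.3, 223 and 245 at 18 months and 259, 214 and 267 at 30 months, and *Slc5a5*, the iodide transporter gene, read 36.1, 29.6 and 26.2 and then 25.1, 34.6 and 30.0 at these ages.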
